A study of Mus musculus with 6 samples.

Results

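miR-21a is a microRNA (miRNA) hairpin that yields 2 mature strands, mmu-miR-21a-5p and mmu-miR-21a-3p, and both were followed here in the small RNA of exosomes, the small vesicles that cells release. The members were taken by name from the deposited count table, in which they are 2 of 707 mature miRNA names. The vesicles came from supernatants of bone marrow-derived macrophages of C57BL/6 mice. Roquin-1 san:san (3 libraries), homozygous for the sanroque allele of the RNA-binding protein Roquin-1, was set against wild type, WT (3 libraries). Roquin-1 binds stem-loops in messenger RNAs and speeds their decay, and mice with the sanroque allele are known for lupus-like autoimmunity. The labels name no stimulus, age or pooling. Nothing in them ties the replicates to different animals, so each p-value reflects library-to-library spread that may be technical.

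A miRNA hairpin is cut by Drosha and Dicer into a duplex, of which an Argonaute protein usually keeps the guide strand while the passenger strand is degraded. The guide finds messenger RNAs through its seed, bases 2 to 8. miR-21a-5p is the guide of its hairpin and one of the most abundant miRNAs of many cell types. It is induced by NF-kB, AP-1 and STAT3 signalling, represses Pdcd4 among other targets, and in macrophages is linked to the later, dampening phase of the response to bacterial ligands. Its targets were not measured in these libraries.

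The mature strands are shown with the seed in capitals, from RefSeq on build GRCm38.p6, to show that the arms have unrelated seeds and how close the 2 miR-21 relatives in the table come to the guide.
miR-21a-5p: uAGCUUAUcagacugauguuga
miR-21a-3p: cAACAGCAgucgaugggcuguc
miR-21b: uAGUUUAUcagacugauauuucc
miR-21c: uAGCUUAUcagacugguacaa
The 92-base hairpin lies on the minus strand of chromosome 11, from 86584067 to 86584158 (GRCm38.p6). In the GENCODE annotation of the same build this is inside the exon at the 3' end of Vmp1, a gene of autophagy, in its untranslated part and on the same strand. Both arms are 22 bases long. The guide begins with U and has a GC content of 36.4%, and the passenger begins with C and has a GC content of 59.1%. In the minimum free energy fold of the hairpin, 19 bases of each arm were paired with the other arm.

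Only miR-21c shared the seed of miR-21a-5p among the 573 table names with a RefSeq sequence, and no other name shared the seed of miR-21a-3p. Counting from the 5' end and giving the miR-21a-5p base first, miR-21c differs by A16G, G18A, U19C, U20A and G21A, and miR-21b by C4U in the seed and by G18A, G21U and A22C after it. The lengths also differ, at 21 bases in miR-21c, 23 in miR-21b and 22 in miR-21a-5p. miR-21c had 2, 1 and 0 counts in the san:san libraries and 0 in each WT library. miR-21b had 1, 3 and 2 counts in the san:san libraries and 0 in each WT library. Those 9 reads in san:san stand beside 8937 reads of miR-21a-5p in the same libraries.

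The san:san libraries held 185901, 160588 and 126098 miRNA counts, and the WT libraries 12447, 28884 and 21754, so every san:san library was deeper than every WT library. On the CPM scale (counts scaled to library size by the TMM method) each count weighed 6.38 to 10.4 in san:san and 28.1 to 70.4 in WT. Intervals on counts and shares cover counting error only, since reads without molecular identifiers are not independent molecules.

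miR-21a-5p, the guide, made up a larger part of the miRNA of san:san exosomes. It had 3374, 3360 and 2203 counts in the san:san libraries and 176, 399 and 221 in the WT libraries. These were 1.81% (Wilson 95% interval 1.76 to 1.88), 2.09% (2.02 to 2.16) and 1.75% (1.68 to 1.82) of all counts in san:san. In WT they were 1.41% (1.22 to 1.64), 1.38% (1.25 to 1.52) and 1.02% (0.891 to 1.16). The lowest san:san share lay above the highest WT share, so the genotypes did not overlap, and the counting intervals did not overlap either. How many other miRNAs separated in this way, by share or by rank, was not counted. The mean share was 1.88% ± 0.183 in san:san and 1.27% ± 0.221 in WT (SD, n = 3 each), 1.48 times as high in san:san. A two-sided exact permutation test gave p = 0.1, the smallest that 3 against 3 allows.

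**Figure D1:**
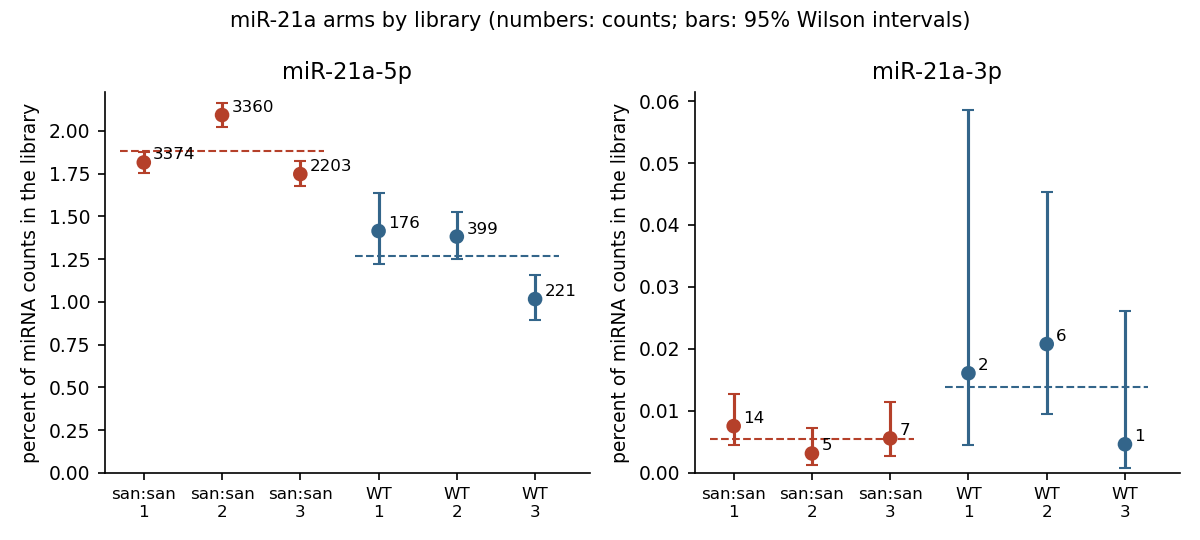
Percent of all miRNA counts taken by miR-21a-5p (left panel) and miR-21a-3p (right panel) in each san:san and WT library, on linear axes from 0. Points are libraries, the numbers beside them are counts, bars are 95% Wilson intervals and dashed lines are group means. The 3 san:san shares of miR-21a-5p, 1.75% to 2.09%, are all above the WT shares of 1.02% to 1.41%, whereas the shares of miR-21a-3p overlap between genotypes.

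With TMM scaling, which sets libraries on the bulk of their miRNAs and not on the few most abundant ones, miR-21a-5p stood at 21528, 25578 and 22832 CPM in san:san and at 12384, 11204 and 8099 CPM in WT. The means were 23313 ± 2067 CPM in san:san and 10562 ± 2213 CPM in WT (SD, n = 3 each). In edgeR's quasi-likelihood test miR-21a-5p rose 2.22-fold in san:san (95% interval 1.61 to 3.05; log2 1.15 ± 0.21, SE; adjusted p = 3.19e-04), and it was higher in each of the 3 san:san libraries than in any WT library. Of 254 miRNAs tested, 163 (64.2%) passed in either direction, 88 (34.6%) were higher and 75 (29.5%) lower in san:san, so a call was common in this comparison. The change of miR-21a-5p ranked 68 from the top among the 254, and 63 of the 88 higher miRNAs, itself included, changed at least as much. The libraries hold RNA of mixed vesicles, so more vesicles of one kind and more of the miRNA per vesicle cannot be told apart.

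The size of the rise depended on the scaling. With total counts the log2 change of miR-21a-5p was 0.56 (edgeR adjusted p = 0.0259), and with RLE factors 0.90 (0.00194). The scaling moved all miRNAs together: their median log2 change was 0.30 with TMM, 0.04 with RLE factors and -0.30 with total counts. Relative to that median, miR-21a-5p was higher by 0.85 with TMM, 0.85 with RLE factors and 0.86 with total counts. These near-equal values follow from the shared shift, so they add no separate support. Other settings moved the value, to 1.28 with DESeq2 and to 0.70 without WT replicate 3. The calls over all miRNAs split into 88 higher and 75 lower with TMM and 49 and 101 with total counts, of 254 tested in each. DESeq2, which has another model and filter, split its calls into 62 and 104 of 419 tested, so that split does not show scaling alone.

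**Figure D2:**
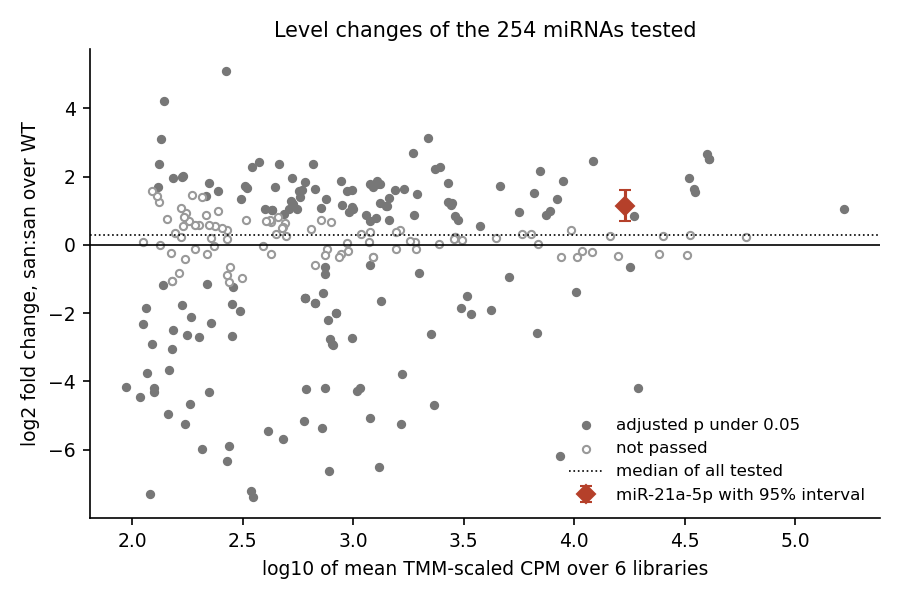
Log2 fold change of each of the 254 tested miRNAs, san:san over WT, against log10 of its mean TMM-scaled CPM over the 6 libraries. Filled points passed at an adjusted p under 0.05 and the diamond is miR-21a-5p with its 95% interval. It lies at log2 1.15, above the dotted median of 0.30, among many other raised miRNAs.

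By rank, which needs no scaling, miR-21a-5p was 15, 11 and 13 among the 707 names in the san:san libraries and 17, 22 and 26 in the WT libraries (rank 1 is the highest count). The mean rank was 13 ± 2 in san:san and 21.7 ± 4.51 in WT (SD, n = 3 each; exact permutation p = 0.1, two-sided, the smallest possible), without overlap, although san:san replicate 1 and WT replicate 1 were only 2 places apart. In all 3 WT libraries 7 miRNAs had more reads than miR-21a-5p and in all 3 san:san libraries fewer, and 0 moved past it the other way. Among these 7, which were listed after their values were seen, miR-130a-3p, miR-23a-5p, let-7c-5p and let-7b-5p fell in the edgeR test. The other 3 did not pass: let-7d-3p (log2 -0.34, adjusted p = 0.195), miR-23b-3p (-0.20, 0.441) and miR-146a-5p (0.26, 0.363). The 5 miRNAs with more reads than miR-21a-5p in all 6 libraries were miR-25-3p, let-7a-5p, let-7f-5p, miR-92a-3p and miR-126a-5p.

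Over the 6 libraries miR-21a-5p was 16 by mean CPM, between let-7b-5p and let-7d-3p. These are a 5p and a 3p strand of the let-7 family, whose 5p guides repress growth genes. The order of these neighbours was not the same in the genotypes. let-7b-5p averaged 13885 ± 662 CPM in san:san and 22007 ± 1996 CPM in WT (SD, n = 3 each), so it lay below miR-21a-5p in 3 of 3 san:san libraries and above it in 3 of 3 WT libraries. let-7d-3p averaged 13897 ± 838 CPM in san:san and 17672 ± 5019 CPM in WT, with the same reversal in 3 of 3 libraries of each genotype. miR-191-5p, 2 places above, averaged 24072 ± 606 CPM in san:san and 13335 ± 961 CPM in WT. It had more reads than miR-21a-5p in 2 of 3 san:san libraries and in 3 of 3 WT libraries, so in san:san the pair could not be ordered beyond the spread.

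**Figure D3:**
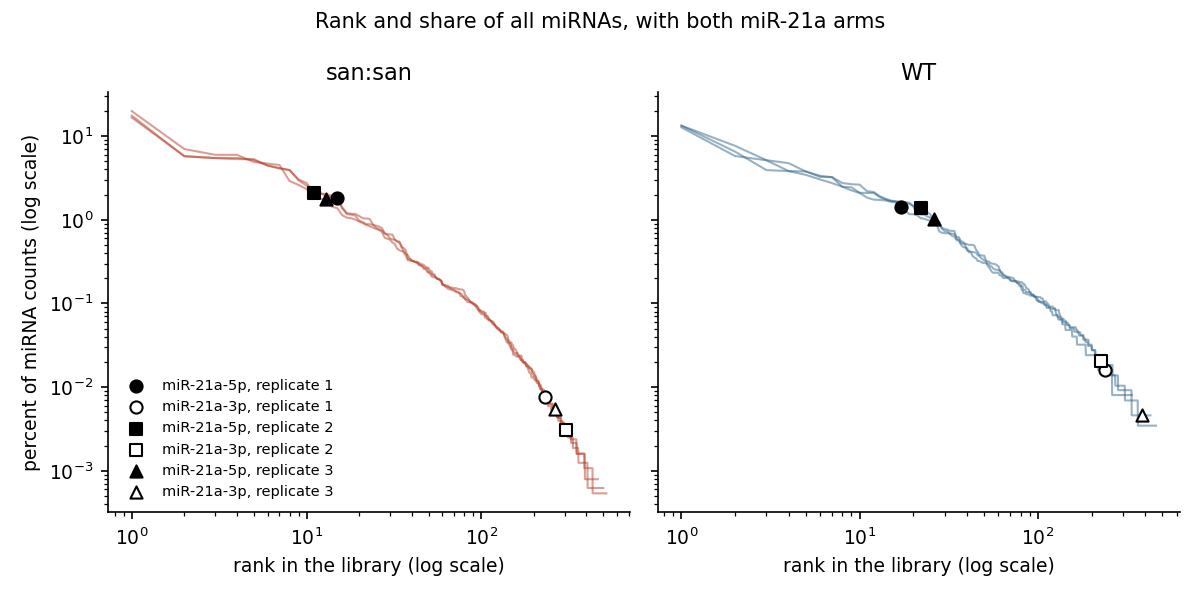
Percent of miRNA counts against rank in each library, both on log scales, for san:san (left panel) and WT (right panel). Each line is a library, filled marks are miR-21a-5p and open marks miR-21a-3p. miR-21a-5p sits between ranks 11 and 15 in san:san and between 17 and 26 in WT, and miR-21a-3p lies on the steep tail, at rank 226.5 or beyond, in every library.

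miR-21a-3p, the passenger strand, was close to the limit of detection. It had 14, 5 and 7 counts in the san:san libraries and 2, 6 and 1 in the WT libraries. Its share was 0.00753%, 0.00311% and 0.00555% of all counts in san:san and 0.0161%, 0.0208% and 0.00460% in WT. A count of 0 would have allowed up to 0.00238% in the shallowest san:san library and up to 0.0241% in the shallowest WT library, if 3 counts are the limit. The lowest value was that of san:san replicate 2 and the highest that of WT replicate 2, and WT replicate 3 lay inside the san:san range. The means were 0.00540% ± 0.00221 in san:san and 0.0138% ± 0.00832 in WT (SD, n = 3 each; exact permutation p = 0.3, two-sided), a difference within the spread of the libraries.

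The count filter removed miR-21a-3p from the edgeR test. Summed over libraries it had 26 counts in san:san and 9 in WT, a ratio of shares of 0.386 with an exact 95% counting interval of 0.175 to 0.935, and with TMM-scaled library sizes a ratio of 0.579 with an interval of 0.263 to 1.40. Its mean rank was 267 ± 36.7 in san:san and 283 ± 86.4 in WT (exact permutation p = 0.9), and in WT replicate 3, at 1 count, it was tied with 92 other names. The counting interval lay below 1 for the ratio of shares but not with TMM-scaled sizes, and the libraries of the genotypes overlapped. A difference in the level of the passenger strand was therefore not established. Next to it in mean CPM were miR-31-3p and miR-15a-3p above and miR-10a-5p and miR-155-5p below. Of these only miR-31-3p, with 3 counts in san:san and 13 in WT over all libraries, was kept by the filter. It was kept through the shallow WT libraries, where few reads reach the minimum CPM, while miR-15a-3p (35 and 8 counts in san:san and WT), miR-10a-5p (49 and 5) and miR-155-5p (31 and 9) were removed, so no direction is read from its test.

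The guide outnumbered the passenger in every library, by a larger ratio of reads in san:san. There were 241, 672 and 315 reads of miR-21a-5p for each read of miR-21a-3p in the san:san libraries, and 88.0, 66.5 and 221 in the WT libraries. The passenger was 0.413% (exact 95% interval 0.226 to 0.692), 0.149% (0.0483 to 0.346) and 0.317% (0.127 to 0.652) of the reads of both arms in san:san. In WT it was 1.12% (0.136 to 4.0), 1.48% (0.546 to 3.20) and 0.450% (0.0114 to 2.48). The lowest san:san ratio, in replicate 1, was just above the highest WT ratio, in replicate 3. Those neighbouring libraries cannot be ordered, since the interval of san:san replicate 1 lies inside that of WT replicate 3. The ratio in WT replicate 3 rests on 1 passenger read. Only the intervals of san:san replicate 2 and WT replicate 2 were apart. For every other pair of libraries from different genotypes they overlapped, and overlap alone does not settle whether a pair differs.

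In edgeR's test of the arm-by-genotype term, a term for each library let depth and scaling cancel. The ratio of miR-21a-5p to miR-21a-3p was 3.79-fold higher in san:san (95% interval 1.54 to 9.30; log2 1.92 ± 0.66, SE; adjusted p = 0.0112). Among pairs of libraries from different genotypes, only san:san replicate 2 and WT replicate 2 had counting intervals that did not overlap. Of 49 hairpins tested, 18 (36.7%) passed in either direction and 9 (18.4%) had a higher ratio in san:san. The call rested on few passenger reads and ended without WT replicate 2 (log2 1.38, adjusted p = 0.400), WT replicate 1 (1.92, 0.114) or san:san replicate 2 (1.55, 0.0580). It also ended with every library thinned to the smallest (1.76, 0.254).

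**Figure D4:**
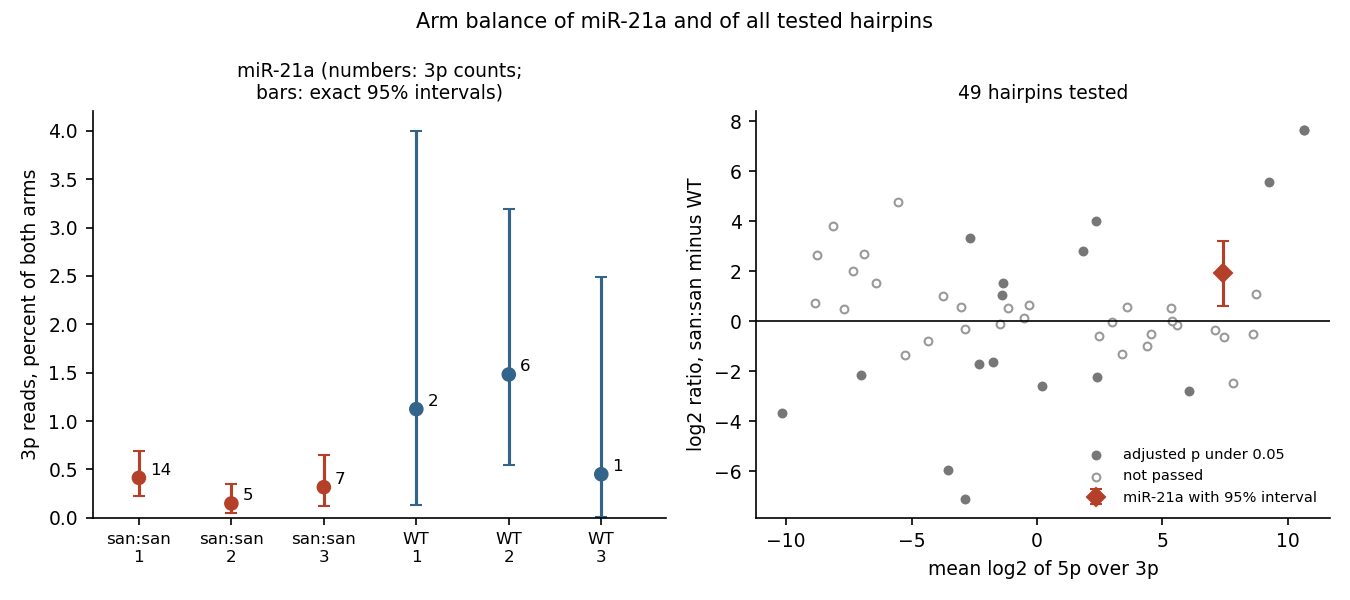
Left panel: miR-21a-3p as percent of the reads of both arms in each san:san and WT library, with exact 95% intervals and the passenger counts as numbers. Right panel: for 49 hairpins, the san:san minus WT difference in log2 of 5p over 3p against the mean log2 ratio, with miR-21a as a diamond with its 95% interval. miR-21a lies at a difference of 1.92, and the WT intervals in the left panel are wide and rest on 1 to 6 passenger reads.

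Among the 49 hairpins, of which 23 had more 5p and 26 more 3p reads, miR-21a had the eighth highest 5p to 3p ratio. Its mean log2 ratio was 8.23 in san:san and 6.61 in WT. Next above it were miR-185 and miR-191, and next below let-7e and miR-122. The ratio of miR-122, the main miRNA of liver cells, was lower in san:san (2534 guide and 90 passenger reads in san:san, 391 and 2 in WT; fold of the ratio 0.146, 95% interval 0.0504 to 0.423, edgeR adjusted p = 0.00170). The call of miR-122 rests on 2 passenger reads in WT, and whether it holds with a library left out was not examined. The ratios of miR-191 (edgeR adjusted p = 0.521) and let-7e (0.820) did not pass. Nor did that of miR-185 (0.544), which had 2 passenger reads in san:san and 0 in WT. Ordered from the largest rise of the ratio to the largest fall, miR-21a was 12 of 49, and by absolute size 20 of 49. In the signed order it came after miR-130a and miR-223 and before miR-214 and miR-199b. miR-130a (adjusted p = 0.199), miR-223 (0.172) and miR-214 (0.469) did not pass, and miR-199b did (log2 1.53, 4.60e-05). miR-199b had at least 47 reads of each arm in each genotype, though its 3p arm has the same counts as that of miR-199a, so those reads cannot be assigned, whereas miR-21a had 26 and 9 passenger reads in san:san and WT.

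The miRNAs whose levels followed miR-21a-5p most closely over the 6 libraries were miR-326-3p (Pearson r = 0.987 of log2 CPM), miR-328-3p (0.985), miR-1306-5p (0.975), miR-127-3p (0.972) and miR-342-3p (0.971). These correlations are a description over 6 libraries that differ in genotype and in depth together, and 32 of 208 other miRNAs with reads in every library had r above 0.9. Their log2 changes in san:san were 1.86, 1.70, 2.70, 2.38 and 1.87 in that order, given as a description because miRNAs chosen for following miR-21a-5p also follow its difference between genotypes.

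Of 11 other names of miRNAs known to be induced by Toll-like receptor, NF-kB, AP-1 or STAT3 signalling, 5 passed the count filter. Among these 1 was called higher, 1 lower and 3 did not pass, beside 34.6% higher and 29.5% lower over all 254 miRNAs, and 5 members are too few to be told from those rates. Their median log2 change was 0.15, beside 0.30 for all. miR-222-3p, which represses the cell-cycle inhibitor p27, had 311, 239 and 170 counts in san:san and 8, 58 and 25 in WT. On the TMM scale it rose by 0.73 ± 0.28 (edgeR adjusted p = 0.0383). As a share of counts it was highest in WT replicate 2, so the genotypes overlapped. Its cluster partner miR-221-3p was at -0.34 ± 0.21 (0.164). miR-9-5p, which targets Nfkb1, had 2, 4 and 2 counts in san:san and 4, 17 and 14 in WT (log2 -4.31 ± 0.50). It is the member called lower, but like miR-31-3p it was kept by the filter through the WT libraries, so its call fixes no direction for the list.

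The feedback inhibitors of Toll-like receptor signalling miR-146a-5p (0.26 ± 0.25, edgeR adjusted p = 0.363) and miR-146b-5p (0.15 ± 0.20, 0.530) did not pass. miR-155-5p, which promotes inflammatory responses, had 15, 13 and 3 counts in san:san and 1, 7 and 1 in WT. It was too low to test, as were its passenger miR-155-3p, miR-147-3p, miR-132-3p, miR-212-3p and miR-187-3p, each with at most 12 counts in any library. miR-187-3p had 6, 7 and 3 counts in san:san and 0 in each WT library, and a count of 0 in the shallowest WT library allows a share up to 0.0241%. The 11 names together held between 2.21% and 2.58% of counts in san:san and between 3.14% and 3.80% in WT. On the TMM scale their sum was 30250 ± 1261 CPM in san:san and 29455 ± 3881 CPM in WT (SD, n = 3 each), so the direction depended on the scaling. Most of these reads belonged to miR-146a-5p and miR-221-3p, neither of which passed.

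Markers of several cell types were also called higher in san:san beside miR-21a-5p, which many cell types express. The counts of members called are to be read against the 34.6% of all miRNAs called higher and the 29.5% called lower, and the stromal count is near those rates. Macrophage and myeloid names held between 7.67% and 9.47% of counts in san:san and between 2.75% and 4.05% in WT. On the TMM scale 5 of 5 tested members were higher, and their defining miR-223-3p and miR-142a-3p had reads in every library. As shares of counts, miR-142a-3p and miR-342-3p did not overlap between genotypes, whereas miR-223-3p, miR-142a-5p and miR-22-3p did. The share of all miRNAs that separate in this way was not counted. Erythroid names, of which miR-486a-5p and miR-486b-5p carry the same counts and may be the same reads under both names, held between 15.6% and 17.9% in san:san and between 3.84% and 6.25% in WT, with 4 of 5 higher. The lymphocyte miRNA miR-150-5p held between 1.38% and 1.92% in san:san and between 0.409% and 0.492% in WT. Endothelial names held between 3.37% and 6.96% in san:san and between 1.82% and 3.69% in WT, which overlap, with 2 of 2 higher. Liver names overlapped in share, at 0.562% to 0.776% in san:san and 0.584% to 0.786% in WT. Of these, 3 of 4 were called higher, but miR-122-3p (33, 32 and 25 counts in san:san, 1, 1 and 0 in WT) was kept by the filter through the san:san libraries, so its call is not read. The defining miR-122-5p did not pass (log2 0.33, edgeR adjusted p = 0.186). Stromal names also overlapped, at 0.902% to 0.980% in san:san and 0.892% to 1.39% in WT, with 2 of 6 higher and 1 lower. Of the defining markers miR-223-3p, miR-142a-3p, miR-451a, miR-150-5p, miR-126a-3p and miR-122-5p, each had reads in all 6 libraries. The myeloid miR-511-3p and miR-511-5p had 9 and 2 counts over the san:san libraries and 0 in each WT library. The part of these cell types in the rise of miR-21a-5p was not tested. With every library thinned to the depth of the smallest, the log2 change of miR-21a-5p was 0.80 (edgeR adjusted p = 0.00383, medians of 20 draws) and passed in 20 of 20 draws.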

How the data were processed

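Small RNA of macrophage exosomes was compared between 3 san:san and 3 WT libraries, grouped by sample titles. The members, lists and tests were chosen with earlier results of these data known. Per the labels' protocols, RNA was taken with Trizol. The labels name an Illumina TruSeq RNA kit in one field and miRNA libraries in another. mm9 is the build that the submitters' processing notes name. The aligner and the miRNA annotation used are not stated there. The authors deposited whole-number counts per mature miRNA and, per library, a scaled signal named TPM whose sums are 1056890 to 1082570. All of these signal values were whole multiples of 1 read within 0.1 reads (100%) and gave the deposited counts, apart from 1 other name in WT replicate 2. The count test on these reads called 163 miRNAs. The number of columns from outside the series was 0.

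edgeR 4.0.16 (R 4.3.3) was fitted on all counts with filterByExpr (minimum count 10), TMM, robust dispersions and genotype as the term. The 254 miRNAs kept held 98.2% to 99.3% of each library, and p-values were adjusted by Benjamini-Hochberg over all of them. SEs were derived from the F statistic. The arm test used the 49 hairpins whose arms together had 20 counts or more in each library. Mean log2 arm ratios carry a pseudocount in proportion to library size. Alternatives used limma 3.58.1, DESeq2 1.42.0 and libraries thinned without replacement (20 draws). Intervals came from scipy 1.17.1 and statsmodels 0.14.6, and the hairpin fold from ViennaRNA 2.7.2. The procedures were tested on simulated counts. Named miRNAs followed a fixed rule: members, seed mates, neighbours in level and in arm ratio, the 5 most alike, and the induced list. The build of the annotation differs from mm9, so it was used for the hairpin's own place and sequences alone. Replicates differed by more than sampling noise (chi-square per degree of freedom at least 3.34).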

Additional observations from a re-analysis of the deposited data

How the results depend on the processing

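The rise of miR-21a-5p kept its direction and passed in 18 of 18 alternatives, with log2 changes of 0.56 to 1.30 and edgeR or DESeq2 adjusted p between 2.77e-07 and 0.0259. Among them, the fit on reads recovered from the scaled signal reran the same counts apart from 1 other name, so it adds no support. The rank and share of miR-21a-5p kept their direction in all 8 and 9 alternatives, and the share of miR-21a-3p in all 9. The arm ratio difference kept its direction in 12 of 12 alternatives that gave a value and its call in 5. It lost the call, at log2 1.92 each, with hairpins of at least 20 counts summed over libraries (adjusted p = 0.0600) and with non-robust dispersions (0.0525), and in thinned libraries (1.76, called in 1 of 20 draws). With a library left out it ranged from 1.38 to 2.29. Requiring 10 counts of each arm in each genotype removed miR-21a. The rank difference of miR-21a-3p, -15.2, turned to 61.1 in thinned libraries and ranged from -43.2 to 34.6 with a library left out, so its direction is not given. With at least 10 counts in every library, 66 of 103 tested miRNAs were called. In thinned libraries 82 of a median of 131.5 were called, and both settings leave fewer to test. The number of hairpins called was 35 of 154 with counts summed, and 8 of a median of 32 in thinned libraries.

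Correlations of same-numbered deviations were 0.115, -0.0972 and 0.262, and those of differently numbered ones ranged from -0.226 to 0.161. With so few libraries these values cannot decide whether the replicate numbers pair the samples. With the replicate block miR-21a-5p was at log2 1.16 (edgeR adjusted p = 3.08e-06), and the limma arm ratio at 1.63 (adjusted p = 0.105, 11 hairpins called). miR-21a-3p was not in the main test; without the filter it was at log2 -0.64 ± 0.69 (edgeR adjusted p = 0.535), with DESeq2 at -0.94 (0.451), and without WT replicate 3 at -1.23 (0.142). WT depth limits the passenger strand, with 9 reads in all.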

Other observations

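The first base of the strands can be set beside the arm balance for 32 of the 49 hairpins, those with a RefSeq sequence of both arms. The more abundant arm began with U in 12 of the 32 and the less abundant arm in 6. miR-21a was one of the 12 hairpins whose abundant arm began with U and whose other arm did not. Argonaute proteins are known to favour a 5' U, and no test was made of these counts.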
